A study of Rattus norvegicus with 6 samples.

Results

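The miR-23/27/24 family of microRNAs (miRNAs) is encoded at separate loci in the rat, in an a cluster on chromosome 19 and a b cluster on chromosome 17, and its members were followed here in plasma after a dose of a liver toxicant. The members were rno-miR-23a and rno-miR-27a of the a cluster, rno-miR-23b and rno-miR-27b of the b cluster, and rno-miR-24, which both clusters encode; the prefix, which names the rat, is left off from here on. They were taken by name from the miRNA spots of the array and made up 5 of its 677 miRNAs, with 10 of 1644 probes and 100 of 13540 spots on each array. Treated animals were 3 male Wistar rats given thioacetamide at 100 mg/kg into the peritoneum, dissolved in saline. Vehicle animals were 3 male Wistar rats given the saline alone by the same route. Before dosing the treated animals weighed 413 to 428 g and the vehicle animals 393 to 426 g. At the end they weighed 394 to 408 g and 397 to 430 g, and every treated animal had lost weight while every vehicle animal had gained. Plasma RNA was taken 24 h after dosing and hybridised to a 1-colour Agilent rat miRNA array, with 1 array per animal. Thioacetamide injures the liver once hepatocytes oxidise it to reactive products, and the series asked which circulating miRNAs mark that damage. Plasma holds RNA from many tissues, so more cells releasing a miRNA and more of it released per cell cannot be told apart.

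A miRNA is cut from a hairpin precursor and guides the silencing complex to messenger RNAs that pair with its seed, bases 2 to 8 from its 5′ end. miR-27 family members are known in mouse and human as repressors of lipid metabolism genes in the liver, miR-23 as a repressor of glutaminase in human cells, and miR-24 as a brake on cell cycle and apoptosis genes. The a cluster lies outside protein-coding genes, and the b cluster lies inside a host gene, so the clusters need not be transcribed together. The mature sequences, from RefSeq (GRCr8), are shown because the whole comparison rests on how little the paralogues differ; capitals mark the seed.
miR-23a: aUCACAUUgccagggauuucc
miR-23b: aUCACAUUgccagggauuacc
miR-27a: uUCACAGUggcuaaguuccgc
miR-27b: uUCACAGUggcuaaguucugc
miR-24: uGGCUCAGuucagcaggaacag
All 5 members had a RefSeq mature entry. The pair miR-23a and miR-23b shared its seed with no other mature rat miRNA of that RefSeq table, and the same held for the pair miR-27a and miR-27b, while no other miRNA there had the seed of miR-24. Within each pair 20 of 21 bases were identical. Counted from the 5′ end of the mature RNA, the single difference was U19A between miR-23a and miR-23b and C19U between miR-27a and miR-27b, well away from the seed in both. The 22 bases of miR-24 came from 2 genes, Mir24-1 in the b cluster and Mir24-2 in the a cluster, so its signal has no cluster of its own.

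In the array's rn4 coordinates the probes of the b cluster spanned chr17:7351018-7351765, which is 748 bases, and those of the a cluster spanned chr19:25638494-25638809, which is 316 bases. The RefSeq annotation placed Mir23b, Mir27b and Mir24-1 inside Aopep, which encodes an aminopeptidase, and placed Mir23a, Mir27a and Mir24-2 in no other gene. Every member was read by a pair of probes of 16 to 18 bases with 10 spots each, all complementary to the 3′ part of the mature RNA, where the paralogues differ. The probes of miR-24 matched both of its loci, at chr17:7351018-7351035 and chr19:25638494-25638511. A signal for miR-27a or miR-27b therefore rests on 1 base of discrimination, and how far each probe also binds the other paralogue was not tested.

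Signals are given as scaled signal, the sum over a miRNA's probes of the deposited background-subtracted spot means, divided by a factor for each array taken from the 12 probes well above background on all 6 arrays. Before log2 was taken, values were raised to a floor of 46.1 (5.53 on the log2 scale). A miRNA entered the limma fit, a linear model across all tested miRNAs, when Feature Extraction called it well above background on at least 3 of the 6 arrays, and 59 miRNAs did. A call means a Benjamini-Hochberg adjusted p under 0.05 over these 59. Of them, 9 were called higher (15.3%) and 1 lower (1.69%), and the median log2 change was 0.45. The arrays differed in what they could measure. On thioacetamide 2 and 3 all 5 members were well above background and on vehicle 1 it was 4, while on thioacetamide 1, vehicle 2 and vehicle 3 it was 0 of 5. By the row and column numbers that end the scan names, the arrays where members passed lay in columns 3 and 4 of the slide. Those where none did lay in columns 1 and 2, so each side held animals of both groups. The spread of the miRNA spots (median absolute deviation of the unscaled signal, normal-scaled) was 96.6 on thioacetamide 1 and 33.3 and 35.5 on vehicle 2 and 3, against 7.83 and 12.8 on thioacetamide 2 and 3 and 4.92 on vehicle 1.

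Of the 4 members tested, miR-27b alone was called, and it was higher after thioacetamide. Its scaled signal was 154, 269 and 313 on the thioacetamide arrays, against 37.1, 83.5 and 74.0 on the vehicle arrays. Every treated animal was above every vehicle animal, although the lowest treated value came from an array where it was not well above background. On the log2 scale with the floor it averaged 7.88 ± 0.54 after thioacetamide and 6.04 ± 0.45 after vehicle (SD, n = 3 each), a change of 1.84 ± 0.45 (SE), or 3.58-fold. The limma adjusted p was 0.0353. It was well above background on 2 of 3 treated and 1 of 3 vehicle arrays, as were the other tested members, and on that vehicle array it lay under the floor. Without thioacetamide 1 the change was 1.62 (adjusted p 0.0237), and this leave-out kept the call. Leaving out any of the other arrays ended it: the adjusted p was 0.148 without thioacetamide 2, 0.173 without thioacetamide 3, 0.0777 without vehicle 1, 0.0735 without vehicle 2 and 0.151 without vehicle 3, with changes between 1.31 and 2.03.

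miR-27a, which shares the seed of miR-27b, lay on the other side. Its scaled signal was 85.1, 91.9 and 71.5 after thioacetamide, against 125, 147 and 192 after vehicle. All treated animals were below all vehicle animals, and the treated values lay closer together than the vehicle values. Before scaling the signals were 193, 71.3 and 89.3 after thioacetamide, against 117, 114 and 120 after vehicle, and the groups overlapped. Scaled, miR-27a averaged 6.36 ± 0.19 on the log2 scale after thioacetamide and 7.25 ± 0.32 after vehicle (SD, n = 3 each). The change was -0.88 ± 0.35 (SE), 1.84-fold lower, with a limma p of 0.0437 and an adjusted p of 0.129, so it was not called. On the scaled signal the groups did not overlap for 2 of the 4 tested members, miR-27a and miR-27b, and for 37.3% of all tested miRNAs. Without thioacetamide 1 the change was -1.49, with an adjusted p of 0.0147, and leaving out any of the other arrays gave -1.47 to -0.78 with no call. The adjusted p was then 0.287 without thioacetamide 2, 0.376 without thioacetamide 3, 0.106 without vehicle 1, 0.293 without vehicle 2 and 0.0839 without vehicle 3.

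miR-24, the member of both clusters, had the widest spread of the 4 tested among treated animals. Its scaled signal was 151, 556 and 474 on the thioacetamide arrays, against 151, 79.0 and 63.2 on the vehicle arrays. Thioacetamide 1 and vehicle 1 were level, and the other treated animals were far above the other vehicle animals, so the groups met at 1 point. It averaged 8.42 ± 1.03 after thioacetamide and 6.51 ± 0.65 after vehicle (log2, SD, n = 3 each). The change of 1.91 ± 0.64 (SE), 3.75-fold, had a limma adjusted p of 0.0819 and was not called. Without thioacetamide 1 it was 1.91 with an adjusted p of 0.0387, without vehicle 3 it was 0.87 (adjusted p 0.490), and with the slide side as a block it was 1.43 with an adjusted p of 0.0375.

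miR-23a, the seed partner of miR-23b, did not separate the groups. Its scaled signal was 73.2, 211 and 245 after thioacetamide, against 148, 113 and 148 after vehicle. Thioacetamide 1 was the lowest of the 6 arrays and the other treated animals were the highest. The log2 means were 7.29 ± 0.95 after thioacetamide and 7.08 ± 0.22 after vehicle (SD, n = 3 each), a change of 0.21 ± 0.54 (SE) with a limma adjusted p of 0.782. Its direction was set by single arrays: without thioacetamide 2 the change was -0.01, without thioacetamide 3 it was -0.12, and without vehicle 3 it was -0.50.

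miR-23b did not enter the fit, since it was well above background on thioacetamide 2 and 3 alone. Its scaled signal was 41.5, 114 and 102 after thioacetamide, against 18.8, 19.4 and 16.8 after vehicle. The vehicle animals were close to one another and below every treated animal, and all 3 of them, with thioacetamide 1, lay under the floor. At the floor the log2 means were 6.34 ± 0.71 after thioacetamide and 5.53 after vehicle (SD, n = 3 each), and no fold is given because the lowest signals that could be detected on the vehicle arrays averaged more than the treated mean. Before the floor the log2 difference was 2.10, which rests on vehicle signals that were not well above background.

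**Figure D1:**
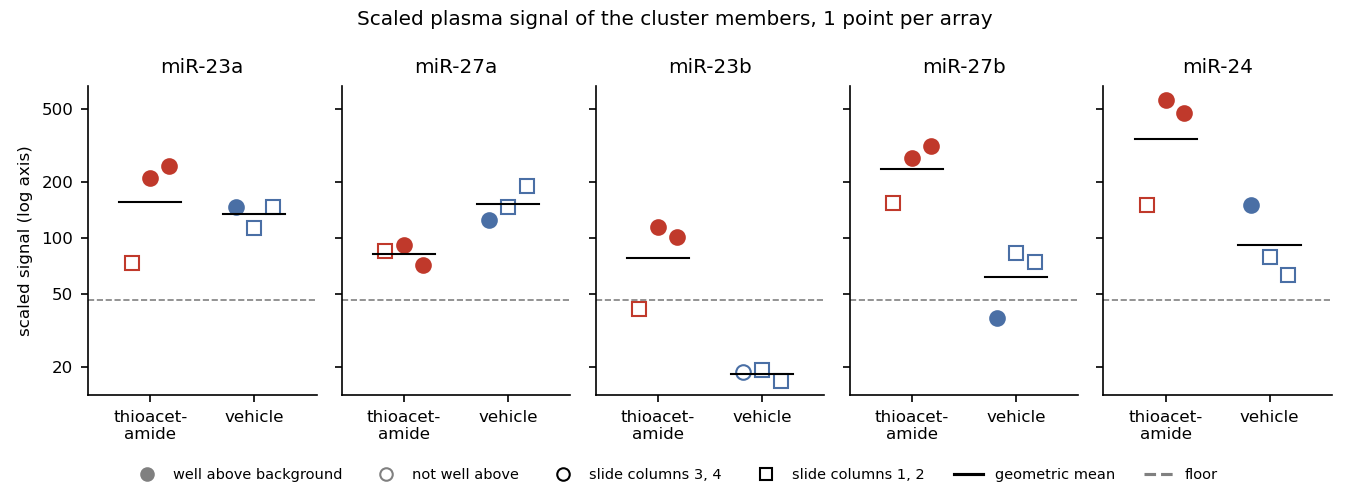
Scaled signal (log axis) of the 5 members on each thioacetamide and vehicle array, with filled points well above background, squares for arrays in slide columns 1 and 2, circles for columns 3 and 4, black lines for geometric means before the floor and a dashed line for the floor of 46.1. miR-27b is higher and miR-27a lower on all 3 thioacetamide arrays than on any vehicle array, and every filled point is a circle.

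The passenger arms, the opposite strands of the same hairpins, are usually degraded and were looked at as a second readout of the loci. All 6 arms on the array (miR-23a*, miR-23b*, miR-27a*, miR-27b*, miR-24-1* and miR-24-2*) were well above background on 0 of the 6 arrays. Their unscaled summed signals lay between -563 and -6.20 on the thioacetamide arrays and between -213 and -2.36 on the vehicle arrays. In columns 1 and 2 they were -563 to -50.1, in size as large as, or larger than, many of the members' own signals there. In columns 3 and 4 they were -62.7 to -2.36, smaller in size than most of the members' signals there. The signals of miR-27b before scaling were 351, 209 and 391 on the thioacetamide arrays and 34.8, 64.8 and 46.3 on the vehicle arrays. The negative sums give no level for the arms, and miR-24-1* and miR-24-2* could not be used to divide miR-24 between its loci.

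A difference between paralogues on the same array does not depend on the array's scale factor where neither is raised to the floor, and it addressed whether the clusters changed together. The log2 signal of miR-27b minus that of miR-27a was 0.86, 1.55 and 2.13 on the thioacetamide arrays, against -1.43, -0.81 and -1.38 on the vehicle arrays, where the first would be -1.75 without the floor. All treated animals were above all vehicle animals. Since probes differ in brightness, the level of such a difference means nothing by itself, and it was compared between groups alone. The means were 1.51 ± 0.64 after thioacetamide and -1.21 ± 0.34 after vehicle (SD, n = 3 each), so the log2 ratio of b to a was higher by 2.72 after treatment, or 6.60-fold. The exact two-sided permutation p was 0.1, the smallest that 3 animals against 3 allow, and 0.143 after adjustment over the 10 pairs of members, so the design could not reach 0.05. The difference was 1.96 within slide columns 1 and 2, where neither miRNA was well above background on any array. It was 3.27 within columns 3 and 4, where both miRNAs were well above background on all 3 arrays. Leaving out each array in turn gave 2.44 to 3.11.

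miR-23b minus miR-23a, the other paralogous pair, was affected by the floor. Before the floor it was -0.82, -0.89 and -1.27 on the thioacetamide arrays, against -2.97, -2.55 and -3.14 on the vehicle arrays. Every treated animal was above every vehicle animal. The log2 difference was 1.89 before the floor and 0.61 with it, both with an exact permutation p of 0.1. The floored value was 0.098 without vehicle 1 (exact permutation p 0.9) and 0.032 with scaling over all probes (exact permutation p 1). Because miR-23b was not well above background on any vehicle array, these values are given as a description.

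Members of the same cluster were set against each other in the same way. Across the a cluster, miR-23a minus miR-27a differed by 1.09 between the groups (exact permutation p 0.2, adjusted 0.222, groups overlapping). Within the b cluster, miR-27b minus miR-23b differed by 1.02 with the floor (exact permutation p 0.1) and by -0.15 without it. The ratio of miR-24 to miR-27a was higher by 2.79 on the log2 scale after thioacetamide, 6.91-fold (exact permutation p 0.1, adjusted 0.143). Its closest arrays were thioacetamide 1 at 0.83 and vehicle 1 at 0.28. The exact permutation p was 0.2 without thioacetamide 2, thioacetamide 3, vehicle 2 or vehicle 3, and 0.1 without thioacetamide 1 or vehicle 1. It was 0.3 with a 4-fold higher floor or the Feature Extraction gene signal, and 0.4 with quantile normalization or the percentile over all probes. The sign of the difference held in all 23 other settings. The ratio of miR-27b to miR-24 differed by -0.07 (exact permutation p 0.8), with a sign that turned in 12 of 23 other settings. For miR-27b minus miR-24 the values before the floor were 0.03, -1.05 and -0.60 after thioacetamide, against -2.03, 0.08 and 0.23 after vehicle. That ratio varied more among the vehicle animals than between the groups, so a moderate difference could not be seen. Of the 6 pairs of tested members, 4 had groups that did not overlap, with and without the floor, where 41.6% of the 1711 pairs among all tested miRNAs did. The other 4 pairs hold miR-23b.

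**Figure D2:**
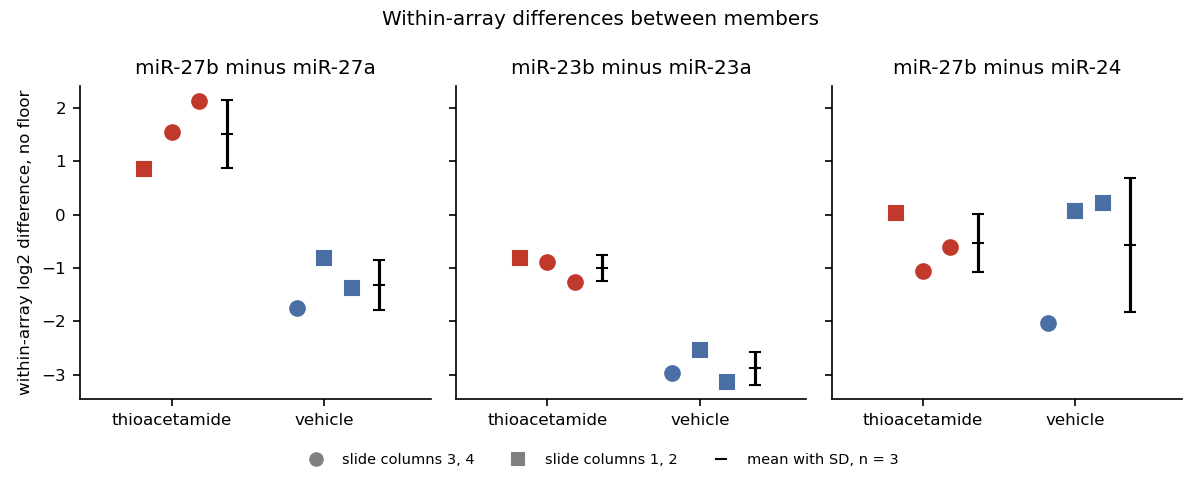
Within-array log2 differences, before the floor, for miR-27b minus miR-27a, miR-23b minus miR-23a and miR-27b minus miR-24, with 1 point per thioacetamide or vehicle array, squares for slide columns 1 and 2, circles for columns 3 and 4, and bars for the mean and SD of 3 arrays. The thioacetamide arrays lie above all vehicle arrays in the first and second panels, and the groups overlap in the third, where the means are -0.54 after thioacetamide and -0.57 after vehicle.

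Paralogues were also compared through single probes that read the same bases of the mature RNA, which removes differences in probe length. The probes for bases 5 to 21 of miR-27 are shown as the DNA strand complementary to the miRNA, with a capital at the only base that differs, G3A from miR-27a to miR-27b, counted from the 5′ end of the probe.
miR-27b probe: gcAgaacttagccactg
miR-27a probe: gcGgaacttagccactg
The miR-27b probe had unscaled means over spots of 126, 54.7 and 115 on the thioacetamide arrays, against 8.90, 21.1 and 16.1 on the vehicle arrays. The miR-27a probe had 146, 51.2 and 67.8 on the thioacetamide arrays, against 88.1, 89.1 and 96.3 on the vehicle arrays. The miR-27b probe was higher on every treated array than on any vehicle array, and the miR-27a probe overlapped between the groups. The miR-27b probe was well above background on thioacetamide 2 and 3 and on no vehicle array, so the ratios of b to a are a description with no fold or test. As log2 ratios they were -0.21, 0.10 and 0.76 after thioacetamide, against -3.31, -2.08 and -2.58 after vehicle. The means were 0.22 ± 0.50 after thioacetamide and -2.66 ± 0.62 after vehicle (SD, n = 3 each). Before scaling, the miR-27a probe was thus lower than under vehicle on thioacetamide 2 and 3 and higher on thioacetamide 1.

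The same was done for miR-23 with the probes for bases 4 to 21, whose only difference is A3T from miR-23a to miR-23b.
miR-23b probe: ggTaatccctggcaatgt
miR-23a probe: ggAaatccctggcaatgt
The log2 ratio of b to a was -1.24, -0.96 and -1.40 after thioacetamide, against -2.92, -2.87 and -3.67 after vehicle. Each treated animal was above each vehicle animal, but the miR-23b probe too was well above background on thioacetamide 2 and 3 alone, so no fold or test is given. For bases 5 to 21 the miR-23b probe was well above background on 0 of the 6 arrays, and no ratio is given. Spot to spot spread was wide where the signal was dim, and on thioacetamide 1 the miR-23a probe for bases 5 to 21 had a mean of 27.3 with an SD of 45.5 over its 10 spots.

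**Figure D3:**
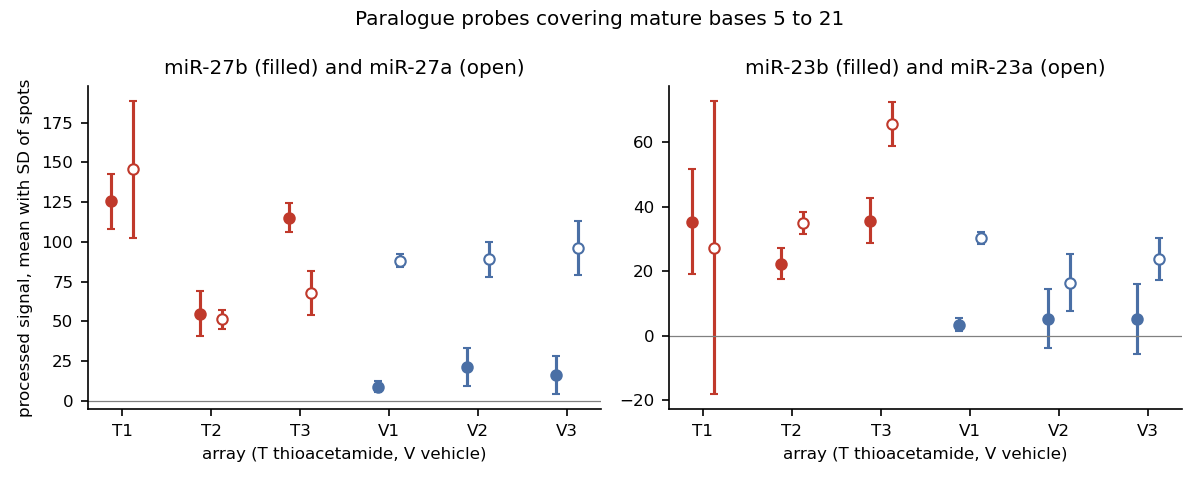
Unscaled processed signal of the paralogue probes that read bases 5 to 21, for miR-27 (left) and miR-23 (right), on thioacetamide arrays T1 to T3 and vehicle arrays V1 to V3, with filled points for the b cluster, open points for the a cluster and bars for the SD over spots. The miR-27b probe is at 54.7 or more on the thioacetamide arrays and at 21.1 or less on the vehicle arrays, whereas the open points of miR-27a overlap between the groups.

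The probes of a member were then compared with each other. Taken without the floor, the log2 changes of the miR-27b probes were 1.92 and 1.95 and those of the miR-23b probes were 2.00 and 2.21, all with groups that did not overlap. Of these 4 probes, the longer miR-27b probe was well above background on 1 vehicle array and the others on none, so their changes are set against background and are a description. The miR-27a probes gave -0.66 and -0.95, also without overlap, and the miR-23a probes gave 0.04 and 0.25 with overlap. For miR-24 the 17-base probe gave 2.24 with overlap and the 18-base probe gave 1.74 without it. Both probes of each member had changes of the same sign.

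By slide side, miR-27b was higher by 0.98 in columns 1 and 2 and by 2.66 in columns 3 and 4, and with the side as a block its change was 1.82 (limma adjusted p 0.0375). miR-24 was higher by 1.09 and 1.76 on the same sides. miR-27a was lower on both, at -0.98 in columns 1 and 2 and -0.62 in columns 3 and 4. miR-23a had opposite signs, -0.82 in columns 1 and 2 and 0.63 in columns 3 and 4. A change in columns 1 and 2 rests on 1 treated and 2 vehicle arrays where no member was well above background, and a change in columns 3 and 4 on 2 treated and 1 vehicle arrays, so these are values with no test.

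The plasma held strong marks of the liver and of red cells. Their values are given because miRNAs of these lists are among the nearest patterns to miR-27b and miR-27a, described below. Of 5 hepatocyte miRNAs on the array, 4 were tested and 3 were called higher, with a summed scaled signal of 9383 to 33325 after thioacetamide, against 199 to 455 after vehicle, and miR-194 of this list was well above background on no array. miR-122, the dominant hepatocyte miRNA, was higher by 8.10 ± 0.61 on the log2 scale (SE, limma adjusted p 4.1e-04). Of 3 erythrocyte miRNAs on the array, 2 were tested and 1 was called lower, with sums of 4100 to 5071 after thioacetamide, against 9125 to 11946 after vehicle, and miR-144 was well above background on no array. miR-451, the most abundant red cell miRNA, was lower by 1.31 on the log2 scale (-1.31 ± 0.34, SE, limma adjusted p 0.0427). The 12 probes that set the scale include 2 of miR-451 and 2 of miR-16, the other tested miRNA of the erythrocyte list.

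Endothelial cells, platelets and leukocytes also carry miRNAs of these clusters. Of 5 platelet and endothelial miRNAs, 1 was tested and 0 were called, and miR-126, miR-126*, miR-221 and miR-222 were well above background on no array. The sum of this list was 104 to 297 after thioacetamide, against 163 to 189 after vehicle. Of 4 leukocyte miRNAs on the array, 2 were tested and 0 were called, with sums of 213 to 367 after thioacetamide and 223 to 609 after vehicle, and miR-142-3p and miR-142-5p were well above background on no array. None of 6 muscle miRNAs was well above background on any array. The part of any of these cells in the members' values was not tested.

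The nearest patterns to each member over the 6 arrays, by Pearson correlation of log2 scaled signal, are given for the tested members. The points share the treatment difference, the scale factors and the slide sides, so the coefficients describe likeness alone. For miR-27b they were miR-122* (0.99), miR-30d (0.99) and miR-192 (0.97), and for miR-27a they were miR-20b-5p (0.90), miR-451 (0.83) and miR-150 (0.82). miR-122* and miR-192 belong to the hepatocyte list, miR-451 to the erythrocyte list and miR-150 to the leukocyte list. For miR-24 they were miR-107 (0.94), miR-26a (0.94) and let-7c (0.93), and for miR-23a they were miR-223 (0.96), miR-140* (0.90) and miR-107 (0.85). Of these, miR-223 belongs to the platelet and endothelial list and the others to none of the lists. Among the members themselves the coefficient was -0.79 between miR-27a and miR-27b, 0.81 between miR-27b and miR-24, and -0.85 between miR-27a and miR-24. Within clusters it was -0.22 between miR-23a and miR-27a and 0.85 between miR-27b and miR-23b, which lay at the floor on 4 arrays.

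How the arrays were scaled moved all miRNAs at once. The median log2 change of the tested miRNAs, 0.45 as reported, was 0.97 without scaling and 0.03 when each array was set to the median of the 8 miRNAs found on every array. Against these, miR-27b was higher by 2.59 and 1.57, both called. Quantile normalization put it at 0.71 (adjusted p 0.384) and the 75th percentile over all probes at 1.32 (adjusted p 0.392), and neither kept the call. miR-27a was at -0.12 without scaling (adjusted p 0.914) and -1.25 with the median (adjusted p 0.0423). miR-27b was higher and miR-27a lower in all 25 alternative settings, with sizes of 0.44 to 2.66 for miR-27b and -1.49 to -0.02 for miR-27a. Their difference kept its sign in all 24 settings that gave one, at 0.46 to 3.27, and was lowest with a floor 4 times as high. Its exact permutation p was 0.3 with that floor, with the percentile over all probes (1.79) and with quantile normalization (1.12). With the Feature Extraction gene signal (3.18) the exact permutation p was 0.2, and in these settings the groups overlapped.

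**Figure D4:**
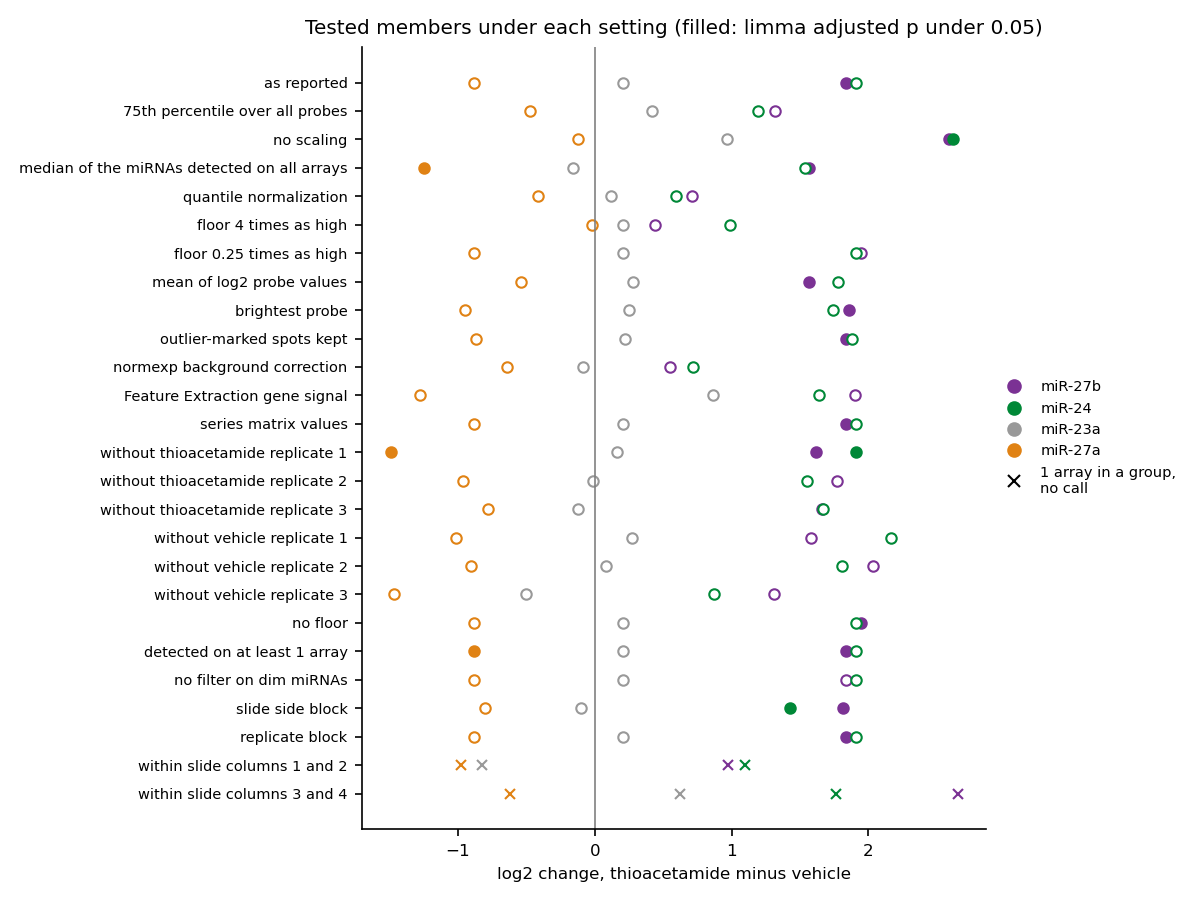
Log2 change, thioacetamide minus vehicle, of the 4 tested members under each setting, with filled points where the limma adjusted p was under 0.05 and crosses, with no call, where 1 array made up a group. miR-27b stays to the right of 0 and miR-27a to the left throughout, and the call for miR-27b held in 11 of the 23 alternatives with over 1 array in each group.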

How the data were processed

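miRNAs were measured in plasma RNA of 6 rats. Spot intensity was deposited by the authors on a linear scale with background already subtracted, so some values are negative. The submitters' processing notes name Agilent Feature Extraction 10.7.3.1. The deposited matrix equals them to within 0.005 and was an alternative. Arrays were grouped by the treatment in the sample titles, and each array has body weights of its own in the labels. The 715 control spots of each array were left out, as were 2126 outlier-marked miRNA spots counted over all 6 arrays together, and 0 spots were saturated.

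A probe was detected where over 50% of its spots were well above background, and a miRNA where any of its probes was. Spot means were summed over probes and divided by the array's 75th percentile over 12 probes detected on all arrays (factors 2.27, 0.775 and 1.25 for thioacetamide 1 to 3 and 0.936, 0.776 and 0.626 for vehicle 1 to 3). A floor at the 5th percentile of detected miRNAs came next, then log2. limma 3.58.1 was run in R 4.3.3 (4 residual and 2.41 prior degrees of freedom) over 59 miRNAs, with treatment as the only term and Benjamini-Hochberg adjustment. Within-array differences had exact two-sided permutation tests. The number of arrays limits the precision. With 1 array per animal, p-values rest on the spread among animals and arrays together, slide side included.

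The members, lists and tests were chosen with earlier results of these data known. Named are the members, their passenger arms, miRNAs of the same seed, the 3 tested miRNAs most like each tested member, and markers by list, with miR-122 and miR-451 by value. Alternatives covered scaling, floor, probe summary, background correction, filters, blocks, slide sides and left-out arrays, and dropping the floor and matching probes by bases were added after the data were seen. The scripts were tested on simulated data.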

Additional observations from a re-analysis of the deposited data

How the results depend on the processing

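Against 10 miRNAs called as reported, 3 were called with the percentile over all probes, 22 without scaling, 16 with scaling to the median, 17 with the brightest probe, 6 with normexp, 19 with detection on at least 1 array, 2 with detection on all 6, 2 without a filter, and 5 to 25 with 1 array left out. Within a slide side 1 array makes up a group and is assumed to vary like the other group, so counts there are no tests of treatment: limma gave 37 in columns 3 and 4 and 0 in columns 1 and 2, where 11 higher and 5 lower had an unadjusted p under 0.05. Of the members, 1 (miR-27b) was called as reported, and 0 with the percentile over all probes, quantile normalization, either other floor, normexp, the Feature Extraction gene signal, or no filter, and likewise in columns 1 and 2. miR-27b and miR-24 were the 2 called without scaling and with the side block (and, against a lone vehicle array, in columns 3 and 4), and miR-27a and miR-27b the 2 called with the median and with detection on at least 1 array. Leaving out 1 array called 0 to 3 members. As reported, 3 of the 4 tested members had an unadjusted limma p under 0.05. Of all 59 tested miRNAs, 16 higher and 5 lower had one too, these members included.

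The change of miR-23a, 0.21 as reported, was -0.16 with the median, -0.088 with normexp, -0.10 with the side block, -0.82 within columns 1 and 2, and -0.50 to 0.27 with 1 array left out. miR-27b minus miR-24, -0.07 as reported, was 0.13 with the percentile over all probes, 0.029 with the median, 0.11 with quantile normalization and with the brightest probe, 0.036 with the lower floor and with none, 0.27 with the gene signal, 0.39 with the side block, 0.89 within columns 3 and 4, and -0.58 to 0.44 with 1 array left out. With the lower floor and with none, miR-27b minus miR-23b was -0.15 and miR-24 minus miR-23b -0.19. miR-23b minus miR-23a was -0.20 with a floor 4 times as high. The causes were not tested.

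The deviations of same-numbered arrays had r of -0.70, -0.31 and -0.66, but each such pair lay on opposite sides of the slide. Thioacetamide and vehicle arrays on the same side had r of 0.23 to 0.74. These values cannot show whether the numbers mark pairs, and the numbers were not taken as pairs. With a replicate block 10 miRNAs and 1 member were called, miR-27b at 1.84 (limma adjusted p 0.0464), and miR-27b minus miR-27a stayed at 2.72. On thioacetamide 1, vehicle 2 and vehicle 3 the lowest detected probe had a scaled signal of 196, 175 and 245, and every member summed to less there.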
